A study of Mus musculus with 6 samples.

Results

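The 10 genes described here control how many mitochondria a cell builds and how their DNA is copied and read. They are Ppargc1a, Ppargc1b, Nrf1, Gabpa, Esrra, Tfam, Tfb2m, Polrmt, Polg and Twnk, taken by symbol from a table of 24411 genes. Of these symbols, 9 were present as written, and Twnk was found as its older symbol Peo1 through a shared RefSeq accession. All 10 had enough counts to be tested, among 17110 tested genes. RNA came from frozen whole testes of age-matched C57BL/6 mice, an inbred laboratory strain, with 3 libraries of genotype MRP5-/- and MRP9-/- (labelled DKO, for double knockout) and 3 labelled Wildtype. MRP5 and MRP9 are ABC-family membrane transporters encoded by Abcc5 and Abcc12. The labels describe no treatment, give no age and do not state the design of either allele.

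Mitochondria carry their own small genome. The PGC-1 coactivators, which do not bind DNA themselves, act with nuclear factors such as NRF1, GABP and the estrogen-related receptors to switch on nuclear genes for mitochondrial proteins. Inside the organelle, TFAM coats the DNA and, with TFB2M, lets the RNA polymerase POLRMT start transcription, while the polymerase POLG and the helicase Twinkle copy the DNA. In the testis, spermatocytes and spermatids remodel their mitochondria, and mature sperm keep few copies of the mitochondrial genome. The mouse Tfam gene also gives a testis form of the protein that is found in the nucleus, listed by RefSeq as the synonym tsHMG. The files list 1 transcript for Tfam, so its counts could not be divided between the forms.

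The libraries labelled DKO held 42673615 to 67131103 expected counts and those labelled Wildtype 26753721 to 31745969. Their mean fragment lengths, recovered from the length columns, were 275 to 317 and 230 to 258 bases, so the ranges were apart for both quantities (p = 0.1 for each in a two-sided exact permutation test, the lowest value possible with 3 against 3). Abcc12 was at 79.0 ± 5.56 CPM (counts scaled to library size) against 160 ± 3.93 (SD, n = 3 each; log2 fold change -1.02, edgeR adjusted p = 0.000307). Abcc5 was at 16.8 ± 0.190 against 11.4 ± 0.898 CPM (log2 fold change 0.56, adjusted p = 0.0225; call kept in 3 of 6 fits that each left out a library), which goes against a loss of its transcript, so groups are called by their labels throughout. With limma on log2(TPM + 1) and log2(TPM + 0.1) the log2 fold change of Abcc5 was 0.27 and 0.33 and was not called (adjusted p = 0.107 and 0.105), and with an offset from effective transcript lengths it was 0.38 and called (adjusted p = 0.0336). Genes whose adjusted p was below 0.05 are termed called. Among 7 or 8 markers per cell type, 3 spermatocyte markers were called higher and 3 Leydig and 2 Sertoli markers lower in libraries labelled DKO. Of all tested genes, 5.75% were called higher and 5.10% lower. With DESeq2, 3 spermatocyte, 2 Leydig and 2 Sertoli markers were called, and with limma-voom 2, 3 and 2. None was called with edgeR for spermatogonia, spermatids or macrophages, where DESeq2 called 0, 1 and 0. Of these markers, 0, 1 and 3 had an unadjusted edgeR p under 0.05, beside 5428 of all 17110 tested genes. Summed spermatocyte markers ran from 4150 to 4510 CPM in libraries labelled DKO and from 3850 to 4090 CPM in libraries labelled Wildtype. Most of this sum was Ldhc, at 3000 to 3020 against 2810 to 2930 CPM, which was not called (log2 fold change 0.06, edgeR adjusted p = 0.579). Of the called spermatocyte markers, Sycp3 and Pou5f2 did not overlap between the groups in CPM, and Hormad1 did. Summed Leydig markers ran from 446 to 654 against 630 to 1190 CPM, and Sertoli markers from 959 to 1140 against 1080 to 1330 CPM. No marker was at 0 in any library. Their part in the results that follow was not tested, and in whole tissue fewer cells of a type cannot be told apart from less RNA per cell.

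The genes lie on 8 chromosomes in the RefSeq annotation of GRCm38.p6, the assembly also called mm10. Tfam (chr10:71225468-71238328) and Polrmt (chr10:79736125-79746604) share a chromosome, as do Esrra and Twnk on chromosome 19. Gabpa (chr16:84834891-84863783) is on the chromosome of Abcc5 (chr16:20331303-20426428). For 9 members, 11 RefSeq promoter windows, each the 250 bases before 1 annotated start site, were searched on both strands for letters bound by members of the same group. The core of the GABP site, CCGGAAG or its reverse complement CTTCCGG, is shared with other transcription factors of the ETS family and is not particular to GABP. It was found 6 times in 5 of the 11 windows, against 6.91% of all 32851 such windows. The matches are shown because they include the called members, Tfam and Polrmt, which went in opposite directions. The others belong to Polg, Gabpa and Twnk, which were not called. A link between the matches and the calls was not tested, and the background was not limited to promoters of tested genes. The core is in capitals, each sequence runs 5′ to 3′ on the strand of its gene, and the windows are from RefSeq for GRCm38.p6.
Tfam: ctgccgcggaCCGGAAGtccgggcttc
Polrmt: cctaagagcgCTTCCGGcagtcgcaga
Polg: aggacctcacCCGGAAGtccctctgca
Gabpa: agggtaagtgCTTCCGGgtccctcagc
Twnk: taaccggtgaCTTCCGGttccggggtt
Twnk: gagagttttgCTTCCGGagtcaccgcg
The Tfam match (chr10:71238075-71238101, minus strand) begins 47 bases before the start site used for that window. This start site is not the outermost one, so the match lies inside the RefSeq gene span given above and in a first exon of the GENCODE M21 models. That of Polrmt (chr10:79746608-79746634, minus strand) begins 43 bases before the start site of its window and lies upstream of the RefSeq span and of all GENCODE exons. The Polg match (chr7:79466295-79466321, minus strand) was exonic, the Gabpa match (chr16:84835021-84835047, plus strand) was partly exonic, and both Twnk matches (chr19:45006438-45006464 and chr19:45006482-45006508, plus strand) were intronic, so these 4 also lie inside the spans of their genes. The NRF1 letters GCGCANGCG, present in 5.16% of all windows, were found once, 141 bases before the start site used for Esrra, and the estrogen-related receptor letters TCAAGGTCA, present in 0.387%, in no window of a member. The searched letters do not overlap one another. These are letter matches only.

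Levels were compared between genes in TPM, the share of all transcripts in a library after correction for length. Polg was the most abundant member in libraries labelled Wildtype, at 49.7 ± 2.54 TPM (SD, n = 3), followed by Tfam at 22.4 ± 0.629. Esrra, Polrmt and Nrf1 came next at 16.2, 15.9 and 15.1 TPM, and neighbours among these 3 overlapped. Gabpa was at 8.78, Tfb2m at 7.54 and Twnk at 7.13 TPM, with Tfb2m and Twnk overlapping. The coactivators were lowest, Ppargc1a at 1.05 ± 0.119 and Ppargc1b at 0.767 ± 0.101 TPM. In libraries labelled DKO the order was the same except that Nrf1, at 13.4 TPM, stood above Polrmt, at 12.1 TPM, and these overlapped. The 10 genes summed to 142 ± 4.08 TPM in libraries labelled DKO and 145 ± 4.55 TPM in those labelled Wildtype, so their total differed by less than the spread between libraries.

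Tfam was higher and Polrmt lower in libraries labelled DKO, and these were the 2 of 10 members called, against a background of 10.8% of all tested genes called in either direction. For Tfam the background of genes called higher was 5.75%, and for Polrmt that of genes called lower was 5.10%. The groups did not overlap in CPM for 4 members (Esrra, Tfam, Tfb2m and Polrmt), beside 35.9% of all tested genes. The share of members without overlap was therefore close to that of all genes, and 2 called members are too few to set against the background.

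**Figure D1:**
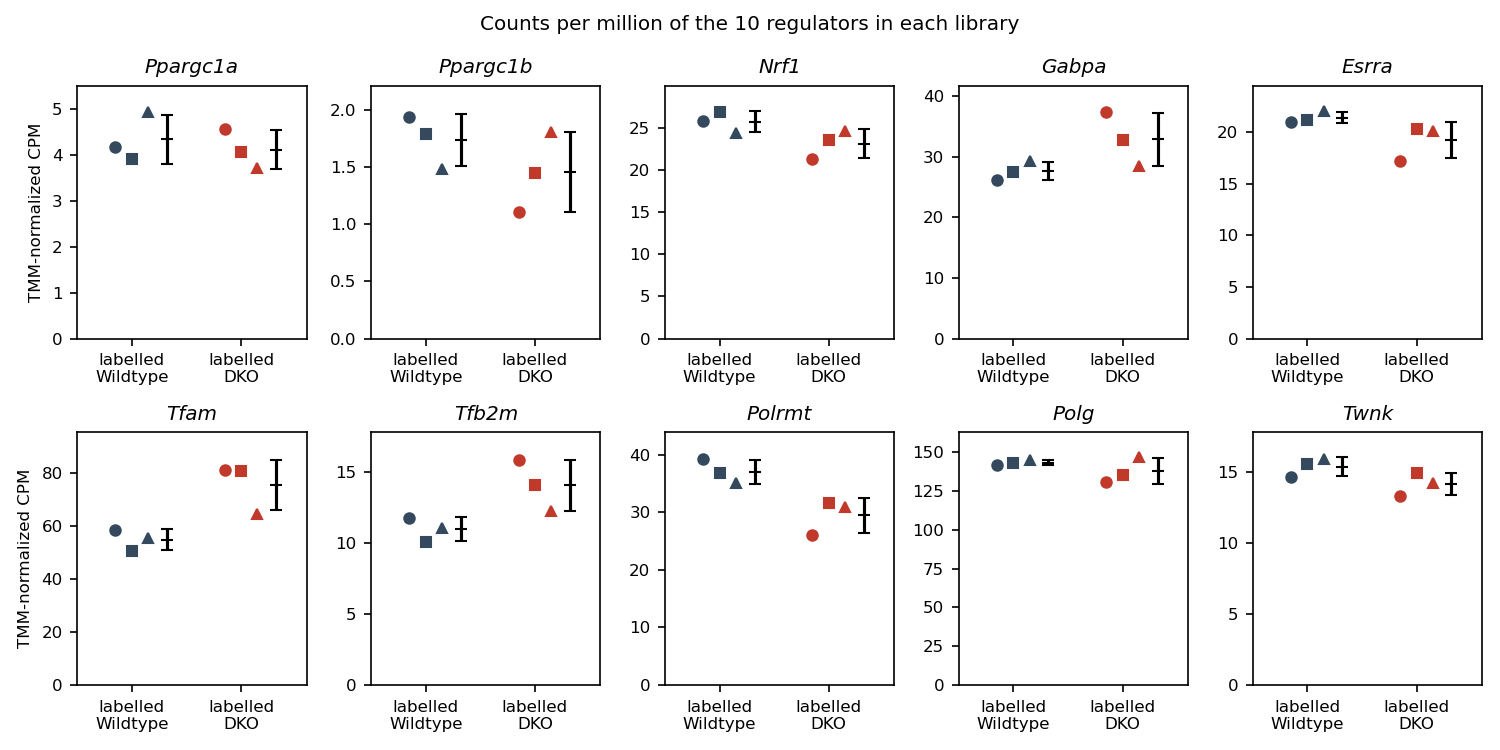
CPM after TMM scaling (vertical axes, starting at 0) for each of the 10 regulators in the 3 libraries labelled Wildtype (dark) and the 3 labelled DKO (red). Circles, squares and triangles are replicates 1, 2 and 3, which are numbered separately in each group, and black bars are mean ± SD. All libraries labelled DKO lie above those labelled Wildtype for Tfam and Tfb2m and below them for Polrmt and Esrra.

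Tfam encodes the protein that packages mitochondrial DNA into nucleoids. Libraries labelled DKO had 81.0, 80.5 and 64.4 CPM, and those labelled Wildtype had 58.2, 50.4 and 55.5 CPM. Every library labelled DKO was therefore above every one labelled Wildtype, with DKO replicate 3 nearest to them. The means were 75.3 ± 9.43 and 54.7 ± 3.94 CPM (SD, n = 3 each), a rise of 37.6% with a log2 fold change of 0.46 (SE 0.0976; edgeR quasi-likelihood test, adjusted p = 0.0271). In TPM the levels were 29.5 ± 2.75 and 22.4 ± 0.629, also without overlap. The call was lost without DKO replicate 1 (adjusted p = 0.117), DKO replicate 2 (0.0651), Wildtype replicate 2 (0.0994) or Wildtype replicate 3 (0.101). Log2 fold changes were between 0.39 and 0.56 over the 6 fits that each left out a library. Calls over all tested genes also fell, from 1856 with all libraries to 11 without DKO replicate 1 and 655 without DKO replicate 2. Without Wildtype replicate 2 or Wildtype replicate 3, 0 of the 15 called members and pathway genes kept the call, so these losses were not particular to Tfam.

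Polrmt encodes the RNA polymerase of mitochondria, which also makes the primers for copying their DNA. It had 26.0, 31.6 and 30.9 CPM in libraries labelled DKO and 39.2, 36.8 and 35.0 CPM in those labelled Wildtype. The groups were apart, and DKO replicate 1 was the lowest of all 6. The means were 29.5 ± 3.06 and 37.0 ± 2.11 CPM (SD, n = 3 each), and on the log2 scale the difference was -0.32 (SE 0.0900; adjusted p = 0.0444 with edgeR). Of the 6 fits without a library, only that without DKO replicate 3 kept the call (adjusted p = 0.0285). Leaving out any of the others gave adjusted p-values of 0.133 (DKO replicate 1), 0.0614 (DKO replicate 2), 0.0761 (Wildtype replicate 1), 0.127 (Wildtype replicate 2) and 0.107 (Wildtype replicate 3). Calls over all tested genes moved too, with 3029 without DKO replicate 3 and 11 without DKO replicate 1. With limma on log2(TPM + 1) the log2 fold change of Polrmt was -0.37 and the adjusted p 0.0571.

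Tfb2m encodes the factor that opens the promoter for POLRMT. Its CPM values were 15.9, 14.1 and 12.3 in libraries labelled DKO and 11.8, 10.1 and 11.1 in those labelled Wildtype. The groups did not overlap, but DKO replicate 3 and Wildtype replicate 1 were close together. The log2 fold change of 0.35 (SE 0.112, 95% interval 0.11 to 0.60) missed the threshold (edgeR adjusted p = 0.0601). It passed with DESeq2 (adjusted p = 0.0364), without a filter on low counts (0.0486) and without DKO replicate 3 (0.0189). Within each library, Tfam was 3.01, 3.39 and 3.11 times as abundant as Tfb2m in TPM in libraries labelled DKO, and 2.94, 3 and 2.99 times in those labelled Wildtype. All 3 ratios in libraries labelled DKO were above the others, by a narrow margin in replicate 1. The ratio of Tfam to Polrmt in TPM ran from 1.99 to 2.98 in libraries labelled DKO and from 1.31 to 1.52 in those labelled Wildtype, without overlap. These ratios restate the 3 genes' levels and were not tested separately.

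The genes of the replication machinery were not called. Polg, the catalytic subunit of the mitochondrial DNA polymerase, had 131, 135 and 147 CPM in libraries labelled DKO and 142, 143 and 145 CPM in those labelled Wildtype. DKO replicate 3 lay above, and the other two below, all libraries labelled Wildtype. Its log2 fold change was -0.06 (SE 0.0705), with a 95% interval from -0.21 to 0.10, the narrowest among the members. Twnk, the helicase that opens the DNA ahead of this polymerase, had 13.3, 14.9 and 14.2 CPM against 14.6, 15.5 and 15.9 CPM, with DKO replicate 2 inside the range of the libraries labelled Wildtype. Its log2 fold change was -0.12 (SE 0.0874, 95% interval -0.31 to 0.07; adjusted p = 0.385).

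Strand handling is not given in the sources used here, so fragments from overlapping genes could not be told apart. In GENCODE M21 the exons of Polg share 921 bases with Fanci on the other strand, those of Twnk share 507 bases with Mrpl43, those of Gabpa share 397 bases with Atp5j, and those of Esrra share 73 bases with Trmt112. Esrra exons also share 91 bases with the microRNA gene Mir6990 on the same strand. Polg also had fractional counts, which arise when fragments are divided between genes. Mrpl43, a mitochondrial ribosomal protein gene whose start lies 779 bases from that of Twnk on the opposite strand, was called lower (log2 fold change -0.51, adjusted p = 0.0263). Atp5j, 700 bases from Gabpa, had a log2 fold change of -0.06 (adjusted p = 0.544), and Cnst, 103 bases from Tfb2m, one of 0.09 (adjusted p = 0.415). Exons of Tfam, Tfb2m and Polrmt shared no bases with another gene. Among the other genes named here, Pprc1, Esrrg, Gabpb1, Gabpb2, Tfb1m, Polg2, Prkaa1, Phb and Clpx also overlap another annotated gene.

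The nuclear transcription factors were not called. Gabpa encodes the DNA-binding subunit of GABP. It had 37.3, 32.7 and 28.5 CPM in libraries labelled DKO and 26.2, 27.4 and 29.2 CPM in those labelled Wildtype, where DKO replicate 3 fell below Wildtype replicate 3. The log2 fold change was 0.25 (SE 0.10, 95% interval 0.03 to 0.47; edgeR adjusted p = 0.117), and it passed the threshold only in the fit without DKO replicate 3 (0.34, adjusted p = 0.0247).

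Nrf1, a transcription factor of many respiratory genes, had 21.3, 23.5 and 24.6 CPM against 25.8, 26.9 and 24.4 CPM. DKO replicate 3 overlapped Wildtype replicate 3, and the log2 fold change was -0.15 (SE 0.0842, 95% interval -0.33 to 0.03; adjusted p = 0.243). The files list 6 transcripts for Nrf1, and its abundance-weighted length was 2744 ± 49.0 against 2812 ± 56.4 bases (SD, n = 3 each; exact permutation test, two-sided, p = 0.2). Esrra, the estrogen-related receptor alpha, had 17.2, 20.3 and 20.1 CPM in libraries labelled DKO and 21.0, 21.2 and 22.0 CPM in those labelled Wildtype. The groups did not overlap, but the highest and lowest neighbours were close, and the log2 fold change of -0.16 did not pass (SE 0.0890, 95% interval -0.35 to 0.04; adjusted p = 0.247).

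The PGC-1 coactivators were scarce and imprecisely measured. Ppargc1a was counted 110 to 251 times per library and had 4.56, 4.07 and 3.72 CPM against 4.17, 3.91 and 4.94 CPM, with partial overlap: DKO replicate 3 was the lowest of the 6 libraries and Wildtype replicate 3 the highest (log2 fold change -0.08, SE 0.140, 95% interval -0.39 to 0.22; adjusted p = 0.722). Ppargc1b was counted 46 to 122 times per library and had 1.11, 1.45 and 1.81 CPM against 1.94, 1.79 and 1.49 CPM. Its log2 fold change of -0.23 had the widest interval of the members, from -0.71 to 0.24 (SE 0.217; adjusted p = 0.492).

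**Figure D2:**
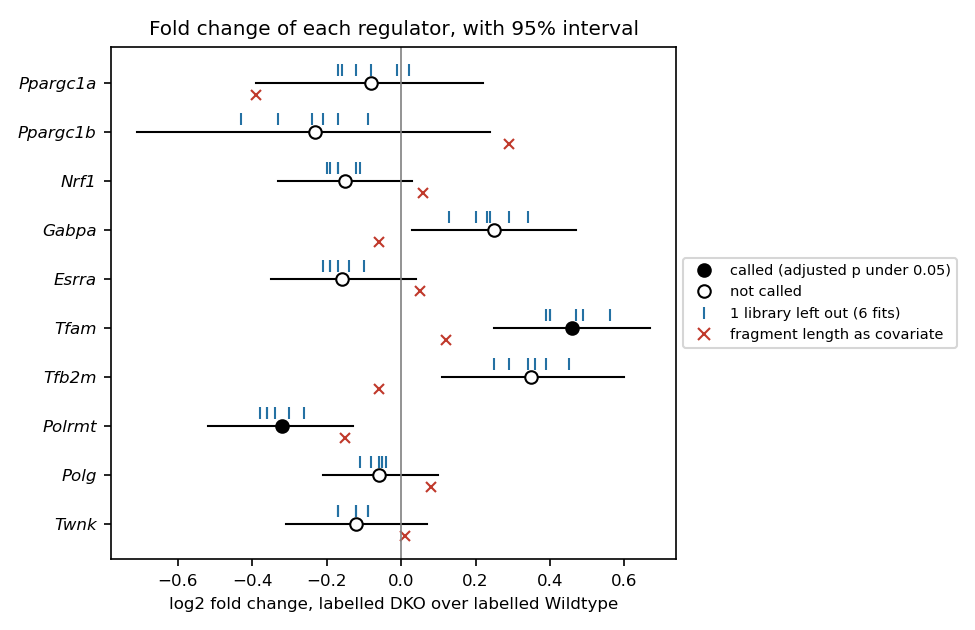
Log2 fold change of libraries labelled DKO over libraries labelled Wildtype (horizontal axis) for each regulator, with its 95% interval. Filled circles are called and open circles are not; blue ticks are the 6 fits that each left out a library, and red crosses the fit with fragment length as a covariate. Tfam at 0.46 and Polrmt at -0.32 are the filled circles.

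Among the 10 members, only Tfam and Tfb2m rose with the fragment length of the libraries at each step, within each group as well as between groups. In order of increasing fragment length (Wildtype replicates 2, 3 and 1, then DKO replicates 3, 2 and 1), Tfam had 50.4, 55.5, 58.2, 64.4, 80.5 and 81.0 CPM. Tfb2m had 10.1, 11.1, 11.8, 12.3, 14.1 and 15.9 CPM in the same order. Neither gene broke the order at any library, but the share of all tested genes that keep this order was not counted. Within each group, libraries in this order also had falling totals of expected counts. The totals were 31745969, 30483782 and 26753721 for Wildtype replicates 2, 3 and 1, and 67131103, 45666837 and 42673615 for DKO replicates 3, 2 and 1. Whether the order within groups follows fragment length or library total was not tested. The order was not particular to Tfam and Tfb2m. Summed spermatocyte markers also kept it, at 3850, 4030, 4090, 4150, 4370 and 4510 CPM. So did Mterf3, a gene of the wider pathway, at 17.4, 19, 20.1, 22.3, 26.1 and 27.4 CPM. Mtpap, of the same pathway, had 13.7, 17.4, 16.1, 19.3, 21.7 and 23.4 CPM and broke the order. Esrra had 21.2, 22.0, 21.0, 20.1, 20.3 and 17.2 CPM and Ppargc1b 1.79, 1.49, 1.94, 1.81, 1.45 and 1.11 CPM, so both broke it. Polrmt had 36.8, 35.0, 39.2, 30.9, 31.6 and 26.0 CPM and Gabpa 27.4, 29.2, 26.2, 28.5, 32.7 and 37.3 CPM. Gabpa thus kept the order among libraries labelled DKO, and Polrmt kept it in neither group. Ppargc1a also rose at each step among libraries labelled DKO (3.72, 4.07 and 4.56 CPM). Nrf1 (24.6, 23.5 and 21.3 CPM), Polg (147, 135 and 131 CPM) and Ppargc1b fell at each step there. None of these genes was ordered by fragment length among libraries labelled Wildtype. With fragment length as a covariate, the log2 fold change was 0.12 for Tfam, -0.15 for Polrmt and -0.06 for Tfb2m, and no member was called (adjusted p = 0.999 for each). Fragment length did not overlap between the groups, so it and genotype cannot be told apart here. With an offset from the effective transcript lengths, Tfam was at 0.44 and Polrmt at -0.34 and both were called (adjusted p = 0.0316 and 0.0431). Each has 1 listed transcript, of 3918 and 3762 bases, which is long beside the fragments. Their effective lengths therefore differed little between libraries, and this fit does not separate fragment length from genotype.

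**Figure D3:**
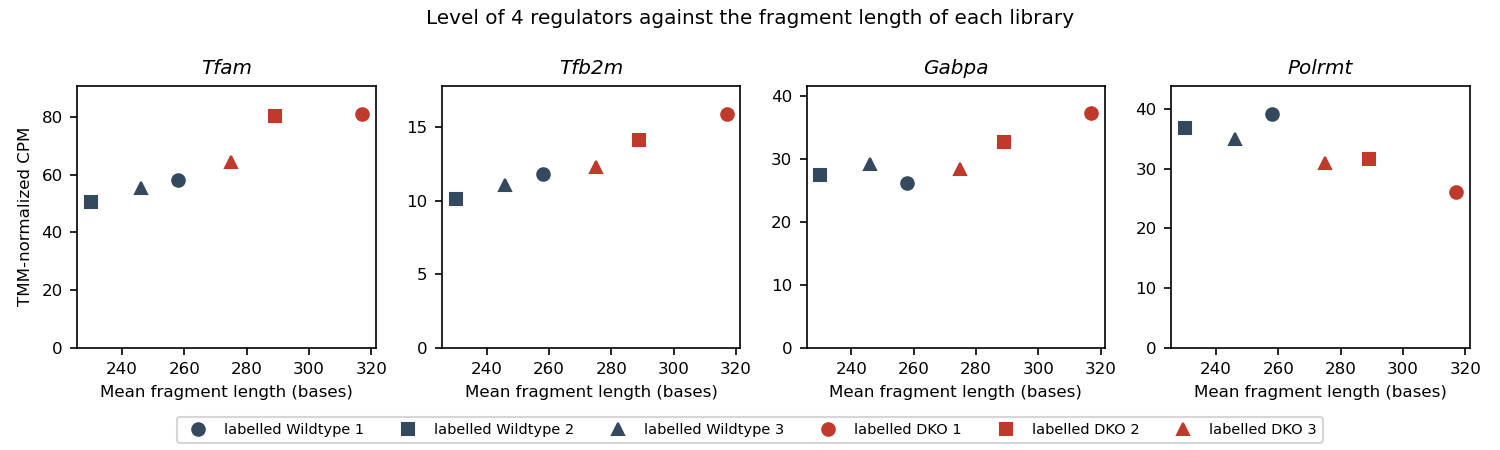
CPM (vertical axes, starting at 0) of Tfam, Tfb2m, Gabpa and Polrmt against the mean fragment length of each library in bases (horizontal axes). Dark symbols are libraries labelled Wildtype and red symbols libraries labelled DKO; Tfam and Tfb2m are higher at each step from 230 to 317 bases.

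The wider pathway was described with 5 lists of 87 genes, all of them tested. Of these, 13 were called, 6 higher and 7 lower in libraries labelled DKO, beside 10.8% of all tested genes called (5.75% higher and 5.10% lower). The median log2 fold change of the 87 genes was 0.04, beside 0.00 over all tested genes. All 13 lost the call without DKO replicate 1, Wildtype replicate 2 or Wildtype replicate 3, and 5 kept it without DKO replicate 2 (Cycs, Slirp, Phb, Cox4i1 and Cox5b). Over all tested genes, 11 were called without DKO replicate 1 and 655 without DKO replicate 2, against 1856 with all libraries. With limma on log2(TPM + 1), 3 of the 13 kept the call (Mterf3, Phb and Cox4i1), and none did with fragment length as a covariate. The direction of the 13 genes was the same in each fit run.

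None of the 16 genes for copying and maintaining mitochondrial DNA was called with edgeR, DESeq2 or limma-voom, beside 10.8% of all tested genes called with edgeR. Of the 16 genes, 2 had an unadjusted edgeR p under 0.05, beside 5428 of all 17110 tested genes. The median log2 fold change of the 16 genes was 0.03. Polg2, the accessory subunit of the polymerase, had 2.18 ± 0.295 against 2.39 ± 0.423 CPM (SD, n = 3 each; log2 fold change -0.12, adjusted p = 0.682). In TPM the catalytic subunit was 16.9 to 18.5 times as abundant as Polg2 in libraries labelled DKO and 15.5 to 21.2 times in those labelled Wildtype. Ssbp1, which coats single-stranded mitochondrial DNA, had 7.74 ± 0.691 against 7.54 ± 0.649 CPM (log2 fold change 0.04, adjusted p = 0.837).

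Of 26 genes for mitochondrial transcription and RNA handling, 3 were called higher and 1 lower, beside 5.75% and 5.10% of all tested genes, and the median was 0.10. The higher ones were Mtpap, the poly(A) polymerase of mitochondrial transcripts (21.5 ± 2.08 against 15.7 ± 1.86 CPM, log2 fold change 0.45), and Mterf3 and Mterf2, of the mitochondrial termination factor family (0.42 and 0.40). The lower one was Slirp, an RNA-binding partner of LRPPRC that stabilizes mitochondrial messenger RNAs, at 34.3 ± 3.98 against 51.1 ± 4.61 CPM (log2 fold change -0.58, adjusted p = 0.0226). With the effective-length offset the log2 fold change of Slirp was -0.24 and was not called (adjusted p = 0.0661), and with limma it was -0.29 on both TPM scales, also not called (adjusted p = 0.0564 and 0.0531). All 4 genes overlap others in GENCODE. Tfb1m, the ribosomal RNA methyltransferase related to Tfb2m, had a log2 fold change of 0.29 (adjusted p = 0.0911), and Tefm, the elongation factor of POLRMT, one of 0.09 (adjusted p = 0.761). Of the 13 protein-coding genes of the mitochondrial genome, 0 matched a symbol of the files, so the output of this machinery was not analysed here.

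Nucleoid and matrix proteins gave 4 calls among 9 genes, 1 higher and 3 lower, beside 5.75% and 5.10% of all tested genes, with a median of -0.05. Lonp1, the matrix protease known to degrade TFAM, had 31, 33.6 and 31.3 CPM in libraries labelled DKO and 35.1, 51.5 and 41.0 CPM in those labelled Wildtype. The groups did not overlap, and Wildtype replicate 2 was far above the rest (log2 fold change -0.41, SE 0.118; edgeR adjusted p = 0.0473). Without that library the log2 fold change was -0.26 and was not called. Atad3a, an inner-membrane ATPase associated with nucleoids, was lower at 14.1 ± 0.935 against 19.1 ± 2.01 CPM (log2 fold change -0.44, adjusted p = 0.0307), as was Phb, a prohibitin of the inner membrane (-0.38, adjusted p = 0.0277). Clpx, the unfolding subunit of another matrix protease, was higher at 212 ± 15.5 against 170 ± 17.1 CPM (0.32, adjusted p = 0.0437).

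Among 22 coactivator partners and upstream regulators, 1 was called, beside 10.8% of all tested genes. It was Prkaa1, the alpha-1 catalytic subunit of the energy sensor AMPK, at 34.4 ± 3.46 against 26.5 ± 2.51 CPM (log2 fold change 0.38, adjusted p = 0.0378). Pprc1, the third member of the PGC-1 family, was at 4.17 ± 0.788 against 4.56 ± 0.191 TPM, above Ppargc1a and Ppargc1b in both groups (log2 fold change -0.06, adjusted p = 0.743). The related receptors Esrrb and Esrrg were at 3.08 and 0.167 TPM in libraries labelled Wildtype, below Esrra, and had log2 fold changes of -0.21 and -0.11 (adjusted p = 0.273 and 0.809). For the partners of GABPA, Gabpb1 had a log2 fold change of 0.26 (adjusted p = 0.0973) and Gabpb2 one of 0.05 (adjusted p = 0.746).

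Textbook target genes of NRF1, GABP and the estrogen-related receptors, 15 in all, gave 1 call higher and 3 lower, beside 5.75% and 5.10% of all tested genes, with a median of -0.01. Lists this short are described by these counts only. Cycs, the somatic cytochrome c, had 69.5, 58.6 and 63.9 CPM in libraries labelled DKO and 47.6, 47.3 and 48.7 CPM in those labelled Wildtype, a rise without overlap (log2 fold change 0.42, SE 0.0773; adjusted p = 0.0237). Cox4i1 and Cox5b, subunits of cytochrome c oxidase, were lower (log2 fold changes -0.45 and -0.42, adjusted p = 0.0263 and 0.0297), and so was Sdhc, a membrane anchor of succinate dehydrogenase (-0.30, adjusted p = 0.0488). With the effective-length offset Cox5b was at -0.23 (adjusted p = 0.0673) and was not called. Sdhc was at -0.27 (adjusted p = 0.0709) and was not called either. Cox4i1 overlaps other genes in GENCODE. Called targets thus went in both directions.

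**Figure D4:**
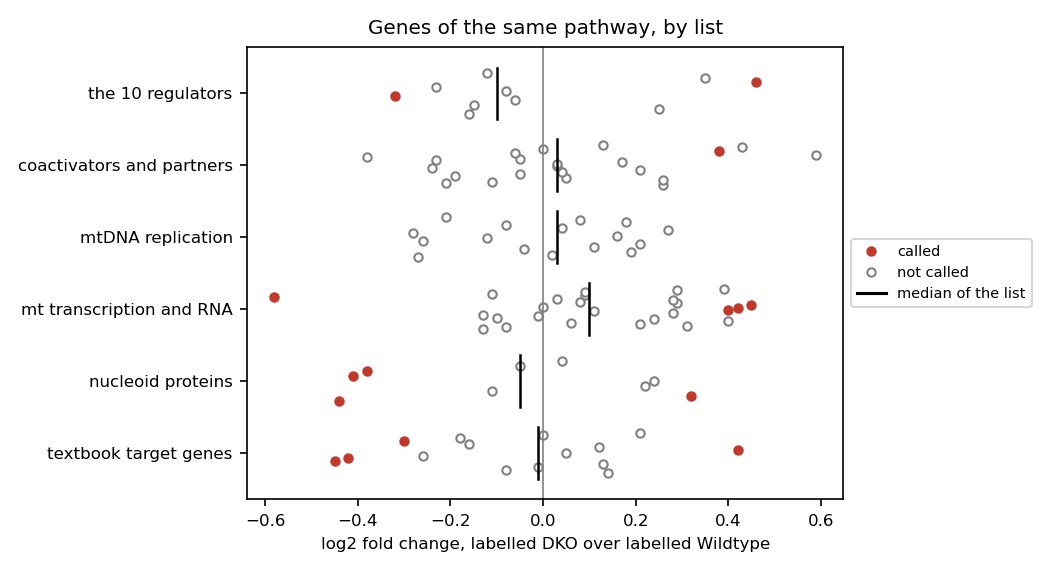
Log2 fold change of libraries labelled DKO over libraries labelled Wildtype (horizontal axis) for each tested gene of the 10 regulators and of the 5 pathway lists (rows). Red points are called, open points are not, and black lines are list medians, which lie between -0.10 and 0.10.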

How the data were processed

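RNA-seq of mouse testis was analysed from 6 files, 1 per library. Per the submitters' processing notes, STAR 2.7.0f, RSEM 1.2.31, DESeq2 1.12.3 and mm10 were used, with roles not given. Per the file headers, the authors deposited RSEM expected counts (93.2% whole numbers), TPM and FPKM per gene, with lengths and effective lengths. The deposited FPKM values were not used. Expected counts were rounded, filtered with filterByExpr (edgeR 4.0.16), scaled by TMM and tested with the quasi-likelihood test over all 6 libraries. Genotype was the only term, with Benjamini-Hochberg adjustment across the 17110 genes tested. Replicates were numbered in order of accession, which pairs nothing. That libraries are separate animals is not stated, so p-values measure the spread between these libraries; no library pair agreed within counting noise (chi-square per degree of freedom at least 6.21). CPM values are TMM-scaled, and intervals use the fit's standard errors. Named genes were the 10 members, both targeted genes, 11 fixed pathway genes and up to 5 called genes per list with the smallest p. Neighbouring genes and overlaps were added later. Members and lists were chosen with earlier results of these data known. The fit was tested on simulated data. Alternatives were DESeq2 1.42.0 and its size factors, limma 3.58.1 (voom; log2 of TPM plus 1 or 0.1), other count filters, length offset, fragment length, thinning and leaving out libraries.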

Additional observations from a re-analysis of the deposited data

How the results depend on the processing

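The edgeR test gave 1856 called genes and 2 called members. DESeq2 called 2943 genes. Limma called 735 genes and 1 member on log2(TPM + 1), and 947 genes and 1 member on log2(TPM + 0.1); that member was Tfam. On these scales 38.0% and 39.1% of calls were higher, against 53.0% with edgeR. With fragment length as a covariate, 1 gene (545 at an unadjusted p under 0.05) and 0 members were called. Leaving out each library in turn gave 7 to 3029 genes and 0 to 4 members. The cause of these shifts was not tested. Tfam stayed higher and Polrmt lower in each of their 16 alternatives. The fragment length covariate reversed 7 members that were not called: Ppargc1b to 0.29, Nrf1 to 0.06, Gabpa to -0.06, Esrra to 0.05, Tfb2m to -0.06, Polg to 0.08 and Twnk to 0.01. It also reversed Pprc1 to 0.25, Tfb1m to -0.05, Tefm to -0.29 and Polg2 to 0.24. On log2(TPM + 1) and log2(TPM + 0.1), Gabpb2 was at -0.02 and -0.03. After thinning, Tefm was at -0.03 and Polg2 at 0.05. Across the fits that left out a library, estimates of uncalled genes crossed 0 for Ppargc1a (-0.17 to 0.02), Pprc1 (-0.19 to 0.01), Tefm (-0.03 to 0.24), Ssbp1 (-0.04 to 0.08), Esrrg (-0.23 to 0.03) and Gabpb2 (-0.03 to 0.08). Among the members, Ppargc1b had the lowest counts (46 to 122 per library) and the widest interval. No paired analysis was possible because the labels give no pairing between the groups.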
